A study of Mus musculus with 10 samples.

Results

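Regulatory T cells (Tregs) from the mouse spleen that carried high levels of the transcript of Klrg1 were set against CD69-positive Tregs gated as Klrg1-negative. The comparison used 4 of the 10 arrays of the study. The Klrg1-high side consisted of the 2 arrays whose titles begin with FR3 and on which the Klrg1 probe set stood above 10 on the log2 intensity scale. The first of them was labelled CD62Llo CD69+ Klrg1+ and numbered replicate 1. The second was titled FR3 and numbered replicate 10, but its marker text read CD62Lhi CD69- Klrg1-, which contradicts the FR3 title and a high Klrg1 level alike. It is called array 10 here, and it entered through a measured value, so every value of the Klrg1-high pair is a description. For many genes replicate 1 alone is given beside the pair. Where a pair difference or list median stands without replicate 1, array 10 is part of it and cannot be read apart. The Klrg1-negative side consisted of replicates 3 and 4 of FR3 with the gate CD62Llo CD69+ Klrg1-. Where a test is given, it compares Klrg1+ replicate 1, by its label, with the FR3 Klrg1- group, and array 10 is left out of it.

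All mice were C57BL/6 females of 9 to 14 weeks with a red fluorescent reporter for Foxp3, and CD4+ reporter-positive cells of the spleen were sorted. The study also held 2 arrays of FR1, gated as CD62Lhi CD69- Klrg1-, another 2 of FR2, which differ from FR1 in being CD62Llo, and FR3 Klrg1- replicates 1 and 2. The RNA, 20 to 50 ng of it, was amplified in a single round, labelled and read on Affymetrix Mouse Gene ST 1.0 chips. The labels call the arrays of a group biological replicates and do not say whether each came from its own mouse or from a pool. The p-values therefore measure the spread between these samples. Klrg1+ by its label has 1 array, so no spread between Klrg1+ samples enters its test, and the spread comes from the other groups.

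Klrg1 is an inhibitory receptor with a C-type lectin fold that binds cadherins and appears on differentiated T cells and NK cells. Tregs hold other lymphocytes in check through Foxp3. Resting Tregs carry Ccr7 and circulate through lymphoid organs, whereas effector Tregs lose it and express suppressive molecules such as Il10, granzyme B and Fgl2, with the transcription factor Blimp-1 (gene Prdm1) as one of their regulators. Klrg1 marks a late stage of this effector differentiation. Tregs of tissues such as visceral fat and gut share part of that programme with further genes, among them Pparg and Gata3.

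The 10 arrays fell into 2 sets by the correlation of all probe sets, and the 4 arrays of the comparison formed the second set. Correlations lay between 0.972 and 0.982 within that set and between 0.901 and 0.921 across the sets, and neither the labels nor the table say what separates the sets. Within the second set the 2 Klrg1-negative arrays correlated at 0.982, and Klrg1+ replicate 1 correlated with them at 0.972 and 0.973. Array 10 correlated with both at 0.975 and with replicate 1 at 0.973. In the first set the 2 arrays of a group correlated more closely, at 0.9885 for FR1, 0.9904 for FR2 and 0.9915 for FR3 Klrg1-. The medians of all 10 arrays lay between 6.15 and 6.31. With 2 arrays a side, precision is limited by their number. Of 10 listed T cell markers, the mean level stood at 11.003 and 11.05 in FR3 Klrg1- replicates 3 and 4, at 10.9 in Klrg1+ replicate 1 and at 10.9 in array 10.

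The Klrg1 transcript chose the arrays and is given without a test. It stood at 7.27 and 7.47 in FR3 Klrg1- replicates 3 and 4, at 12.33 in Klrg1+ replicate 1 and at 12.41 in array 10. The 2 Klrg1-high arrays thus lay 5.004 above the 2 Klrg1-negative arrays on the log2 scale, a 32.1-fold difference. The 6 arrays of the first set held between 5.43 and 7.21, so no array lay between 7.47, the highest FR3 value under the level of 10, and 12.33, the lowest above it. Klrg1 was measured by 1 probe set. None of the other sort markers passed the test in replicate 1. Foxp3 stood at 9.63 and 9.95 in the Klrg1-negative arrays, at 9.64 in replicate 1 and at 9.85 in array 10, and in replicate 1 it differed by -0.15 ± 0.18 (SE, adjusted p = 0.717, limma). Cd69 stood at 10.24 and 9.73 against 9.86 and 9.86, so that both genes overlapped between the sides. Cd4 stood at 10.03 and 9.86 against 10.10 and 10.21, apart by a pair difference of 0.21 (adjusted p = 0.642 in replicate 1, limma). In the first set Cd69 RNA did not follow its gate. It was at 12.26 ± 0.22 in FR1, sorted as CD69-, and at 12.09 ± 0.09 in FR3 Klrg1- (SD, n = 2 each).

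**Figure D1:**
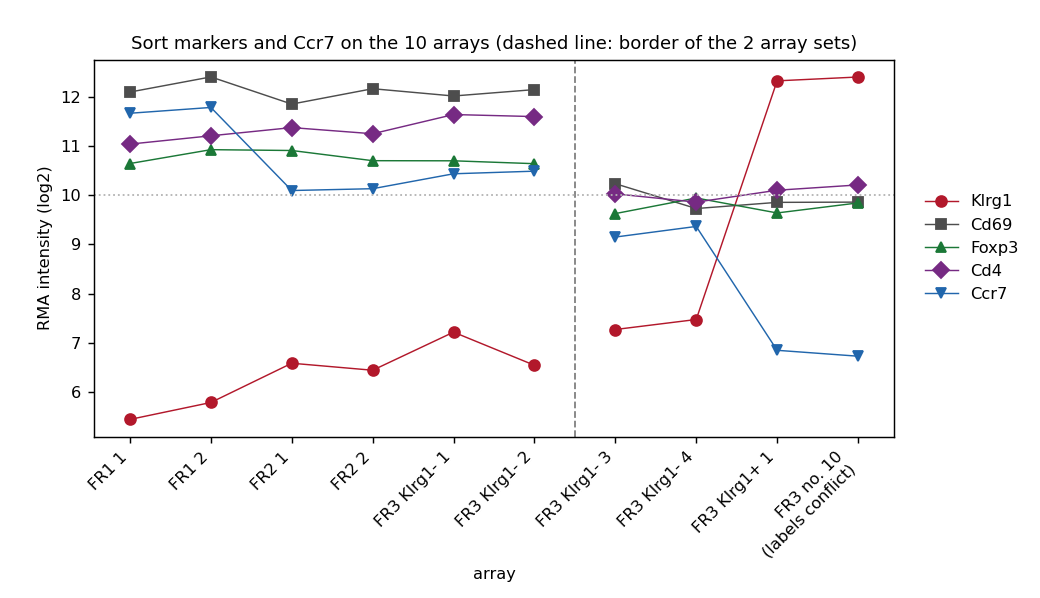
RMA intensity (log2) of the sort markers and of Ccr7 on each of the 10 arrays, with 1 point per array and a line joining the arrays of a set. Klrg1 lies at 12.33 and 12.41 on the 2 Klrg1-high arrays and at 7.47 or below on the others, while in the second set Foxp3 and Cd69 overlap between the sides and Cd4 differs by 0.21.

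Across 19938 genes, 58 were higher and 87 lower in the Klrg1-high pair by at least 1 on the log2 scale with both Klrg1-high arrays beyond both Klrg1-negative arrays, which is 0.291% and 0.436% of all genes and 0.727% together. With no minimum size, 21.3% of all genes had both Klrg1-high arrays above both Klrg1-negative arrays and 19.9% had them below. Replicate 1 alone differed by at least 1 in the same direction for 49 of the 58 higher and 65 of the 87 lower genes, and array 10 alone for 52 and 73. Both did so for 43 and 51. The smallest higher difference counted was that of Chmp4c at 1.01, and Kctd12 at 0.99 lay just outside. On the lower side Khdc1a at -1.0003 was the last counted, and Prim1 at -0.9973 lay just outside.

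By label, Klrg1+ replicate 1 against FR3 Klrg1- gave 989 genes at an adjusted p under 0.05 (limma over the 9 grouped arrays with the array set as a covariate, Benjamini-Hochberg over 19938 genes), which is 4.96% of them, 426 higher (2.14%) and 563 lower (2.82%). Of the 58 higher genes of the pair 57 were among them, and of the 87 lower genes 80, but replicate 1 is part of the pair, so these counts are no independent support for the pair. The fold change in this fit is replicate 1 minus the mean of FR3 Klrg1- replicates 3 and 4. The lone array is assumed to vary like the other groups. That spread is pooled over both array sets, and arrays of a group correlated less in the second set. The SEs and adjusted p behind these 989 genes may therefore be too small. Without FR3 Klrg1- replicate 4 there were 1553. Without the array set in the fit, which then sets replicate 1 against all 4 FR3 Klrg1- arrays, 22 genes passed. Of the 30 genes with the largest differences named below, 18 did not pass in that fit, with adjusted p between 0.0756 and 0.886 (limma). They were Tmem273, Lilr4b, Cxcr6, Fgl2, Neb, Ccr3 and Klf12 on the higher side and Flicr, Ccr7, Actn1, Stfa3, Gsta4, Plpp1, Hdac9, Gbp2b, St8sia1, Gpr83 and Xcl1 on the lower side. The difference was larger in that fit for 9 of the 18 and smaller for the other 9. Cxcr6 went from 1.97 to 2.60, Ccr7 from -2.42 to -3.02 and Actn1 from -2.18 to -2.62, whereas Fgl2 went from 1.69 to 1.45, Flicr from -3.47 to -2.71 and Xcl1 from -1.94 to -0.53 (adjusted p = 0.2, 0.104, 0.0756, 0.196, 0.216 and 0.886 without the set, limma).

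**Figure D2:**
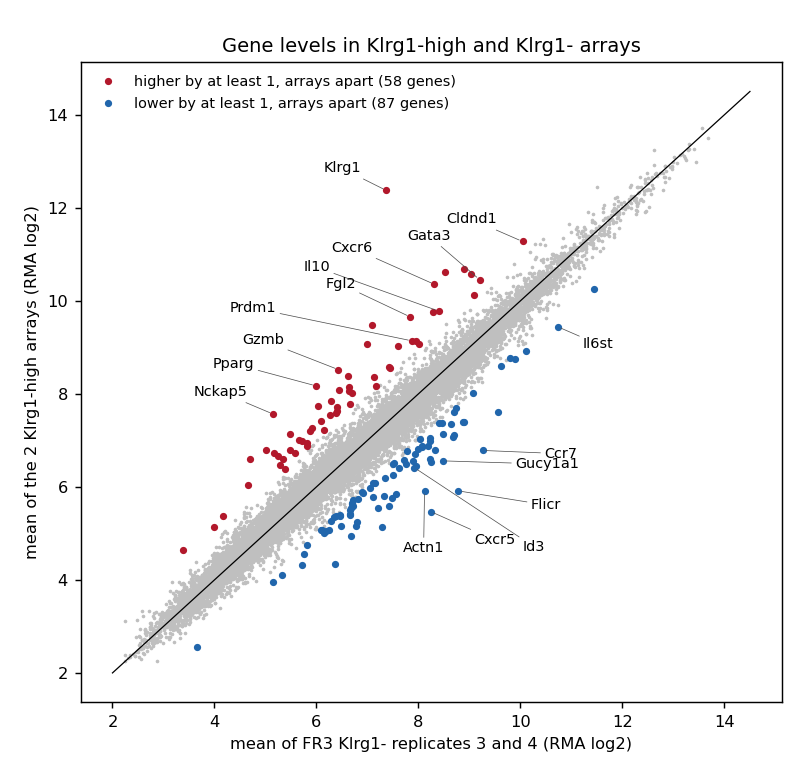
Mean RMA intensity (log2) of each of 19938 genes in the 2 Klrg1-high arrays against the mean of FR3 Klrg1- replicates 3 and 4, with the line of equal levels. Red and blue points are the 58 higher and 87 lower genes whose arrays lay apart by at least 1, and Klrg1 stands farthest from the line.

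The higher genes included suppressive and cytotoxic effector molecules. The 15 higher and 15 lower genes with the largest differences were chosen among genes whose arrays lay apart and that passed in replicate 1. For these 30, lack of overlap and a pass are therefore no result. Lack of overlap is likewise fixed for every gene counted as apart by at least 1. Gzmb encodes granzyme B, a protease delivered to target cells. It stood at 6.45 and 6.41 in the Klrg1-negative arrays, at 8.28 in replicate 1 and at 8.76 in array 10, a 4.25-fold difference of the pairs, and it rose by 1.85 ± 0.18 in replicate 1 (SE, adjusted p = 5.02e-05, limma). Fgl2, a secreted suppressive protein of Tregs, stood at 7.68 and 7.99 against 9.53 and 9.78 and rose by 1.69 ± 0.23 in replicate 1 (SE, adjusted p = 0.000821, limma). Both genes belong to the 15 higher ones, so their lack of overlap was fixed by that choice. Il10, the anti-inflammatory cytokine, stood at 8.39 and 8.40 against 9.66 and 9.90, and it rose by 1.26 ± 0.25 in replicate 1 (SE, adjusted p = 0.011, limma). Of 17 measured suppressor molecules, 5 rose and 1 fell in replicate 1, where 2.14% of all genes rose and 2.82% fell, with a median pair difference of 0.36 against 0.01 over all genes. Ebi3, a subunit of IL-35, and the receptor Tigit were among those that rose, with pair differences of 0.81 and 0.85. The member that fell was Lrrc32, which encodes GARP, the surface anchor of latent TGF-beta, with a pair difference of -0.79. Among 23 granzymes and cytotoxicity genes 3 rose and 1 fell, with a median of 0.15. Besides Gzmb, the pore-forming Prf1 rose by 0.80 ± 0.16 in replicate 1 (SE, adjusted p = 0.00964, limma) from a low level, with the 4 arrays at 6.06, 6.06, 6.86 and 6.76. Gzma had a pair difference of 0.77 and did not pass in replicate 1 (adjusted p = 0.14, limma).

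Chemokine receptors separated into higher and lower members. Cxcr6, a receptor for the membrane-bound chemokine Cxcl16, stood at 8.44 and 8.18 in the Klrg1-negative arrays, at 10.29 in replicate 1 and at 10.42 in array 10. It rose by 1.97 ± 0.27 in replicate 1 (SE, adjusted p = 0.0008, limma). Ccr3, an eotaxin receptor, stood at 6.73 and 6.51 against 8.16 and 8.61 and Gpr15, a receptor of gut-homing T cells, at 6.75 and 6.64 against 8.11 and 7.91. Neither overlapped between the sides, and both rose in replicate 1. Ccr1 was below the 25th percentile of all probe sets in the Klrg1-negative arrays, at 3.33 and 3.43, and stood at 5.20 in replicate 1 and 4.08 in array 10. Ccr8, found on activated tissue Tregs, rose by 1.03 ± 0.23 in replicate 1 (SE, adjusted p = 0.0177, limma), with a pair difference of 0.96.

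Cxcr5, Ccr7 and Ccr6 were the lower members with the largest differences. Cxcr5, which guides cells to B cell follicles, stood at 8.19 and 8.28 in the Klrg1-negative arrays, at 5.28 in replicate 1 and at 5.66 in array 10. It fell by 2.95 on the log2 scale in replicate 1 (SE 0.18, adjusted p = 6.31e-07, limma), and the pairs differed 6.80-fold. Ccr7, the receptor that takes T cells to lymph nodes and the T cell zone, stood at 9.15 and 9.37 against 6.84 and 6.72, and it fell by 2.42 in replicate 1 (SE 0.16, adjusted p = 1.27e-06, limma). Both were far apart in the 4 arrays, and the sides did not overlap. Ccr6, a receptor for Ccl20, stood at 8.43 and 7.95 against 7.07 and 6.70 and also fell in replicate 1 (adjusted p = 0.0112, limma). Over 25 measured chemokine and related receptors, 6 rose and 4 fell in replicate 1, against 2.14% and 2.82% of all genes. The median pair difference of these receptors, 0.17, hides a range from -2.77 to 2.04.

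Among transcription factors, Pparg, a lipid-sensing nuclear receptor known from Tregs of visceral fat, had the largest difference. It stood at 5.77 and 6.21 in the Klrg1-negative arrays, at 8.08 in replicate 1 and at 8.26 in array 10, and it rose by 2.09 ± 0.19 in replicate 1 (SE, adjusted p = 3.04e-05, limma). Prdm1 stood at 7.97 and 7.77 against 9.14 and 9.14, Gata3, a regulator of type 2 helper and tissue Treg cells, at 9.29 and 9.10 against 10.53 and 10.38, and Ahr, a receptor for dietary and other ligands, at 7.94 and 8.08 against 9.14 and 9.01. None of the 3 overlapped between the sides, and all 3 rose in replicate 1 (adjusted p = 0.0131, 0.000346 and 0.00277, limma). Lack of overlap was fixed for these 3, as genes counted as apart by at least 1. Klf12, a Krüppel-like factor, differed more between the 2 Klrg1-high arrays, at 6.75 and 7.54 against 5.50 and 5.48. Rbpj, the DNA-binding partner of Notch, and Id2, which restrains E proteins, had pair differences of 0.85 each and rose in replicate 1. Bcl6, the regulator of follicular T cells, fell, with the 4 arrays at 8.09, 8.11, 7.32 and 7.39 (adjusted p = 0.0448 in replicate 1, limma), as did Myb. In all, 7 of 30 effector transcription factors rose and 3 fell in replicate 1, against 2.14% and 2.82% of all genes. The median pair difference of these factors was 0.22. Tbx21, the regulator of type 1 helper cells, overlapped between the sides with a pair difference of 0.16.

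Receptors for cytokines and inhibitory ligands changed in both directions. Il18rap, a chain of the IL-18 receptor, stood at 7.91 and 7.30 in the Klrg1-negative arrays, at 9.00 in replicate 1 and at 9.03 in array 10, and its partner Il18r1 stood at 9.35 and 9.35 against 10.12 and 10.24. Both rose in replicate 1 (adjusted p = 0.00156 and 0.02, limma). Il17rb, a chain of the IL-25 receptor, stood at 6.99 and 7.27 against 8.42 and 8.30, and Il10ra rose with a pair difference of 0.95. Il6st, the shared signalling chain gp130, was on a high level and lower in the Klrg1-high arrays, at 10.77 and 10.68 against 9.36 and 9.53. It fell by 1.37 in replicate 1 (SE 0.15, adjusted p = 0.000145, limma). Over 27 measured cytokine receptors, 5 rose and 3 fell in replicate 1, against 2.14% and 2.82% of all genes. The median pair difference of these receptors was -0.10. Il2ra, the IL-2 receptor alpha chain, overlapped between the sides at 11.17, 11.07, 11.09 and 11.05. Of 15 co-inhibitory receptors 4 rose and 1 fell, against the same shares of all genes. Havcr2, which encodes TIM-3, stood at 5.87 and 5.96 against 7.10 and 7.43. Pdcd1, which encodes PD-1, stood at 9.01 and 9.18 against 10.13 and 10.10. Both were counted as apart by at least 1, which fixes their lack of overlap. Cd160, a ligand of the herpesvirus entry mediator, was the member that fell, with 8.17 and 7.96 in the Klrg1-negative arrays against 7.002 and 6.77.

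Cd200r1, an inhibitory receptor for CD200, had a pair difference of 1.18. Lilr4b, an inhibitory receptor of the leukocyte immunoglobulin-like family, stood at 8.49 and 8.54 in the Klrg1-negative arrays, at 10.73 in replicate 1 and at 10.53 in array 10. It rose by 2.21 ± 0.29 in replicate 1 (SE, adjusted p = 0.000537, limma). Lilr4b and Lilrb4a are near-identical copies and so are the Cd200r genes, so the probe sets may pick up more than one of them. Among the other killer lectin-like receptors and their ligands, the family of Klrg1, no member had a pair difference of at least 1. The 21 members other than Klrg1 ranged from -0.78 for Klrb1c, the NK1.1 receptor, to 0.58 for Klrb1f, with a median of -0.02. These 2 were also those that passed in replicate 1, 1 in each direction, where 2.14% of all genes rose and 2.82% fell.

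The remaining genes of the 15 with the largest higher differences are less familiar in Tregs. Nckap5 stood at 4.94 and 5.36 in the Klrg1-negative arrays, at 7.31 in replicate 1 and at 7.82 in array 10, but its second probe set gave a pair difference of 0.84. Tmem273 stood at 6.95 and 7.22 against 9.32 and 9.65. Pcyt1a, which makes CDP-choline for membrane phospholipids, stood at 6.93 and 7.07 against 9.07 and 9.08. Cyp11a1, which converts cholesterol to pregnenolone as the opening step of steroid synthesis, stood at 4.77 and 4.62 against 6.52 and 6.70, with the Klrg1-negative arrays below the 25th percentile of all probe sets. None of these 4 overlapped between the sides, which, like a pass in replicate 1, was fixed by the choice of the 15. Neb, Ctsh, which encodes the protease cathepsin H, and Nedd4, a ubiquitin ligase, had pair differences of 1.80, 1.77 and 1.71. All 7 rose in replicate 1, with adjusted p between 6.09e-06 for Tmem273 and 0.0037 for Neb (limma).

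**Figure D3:**
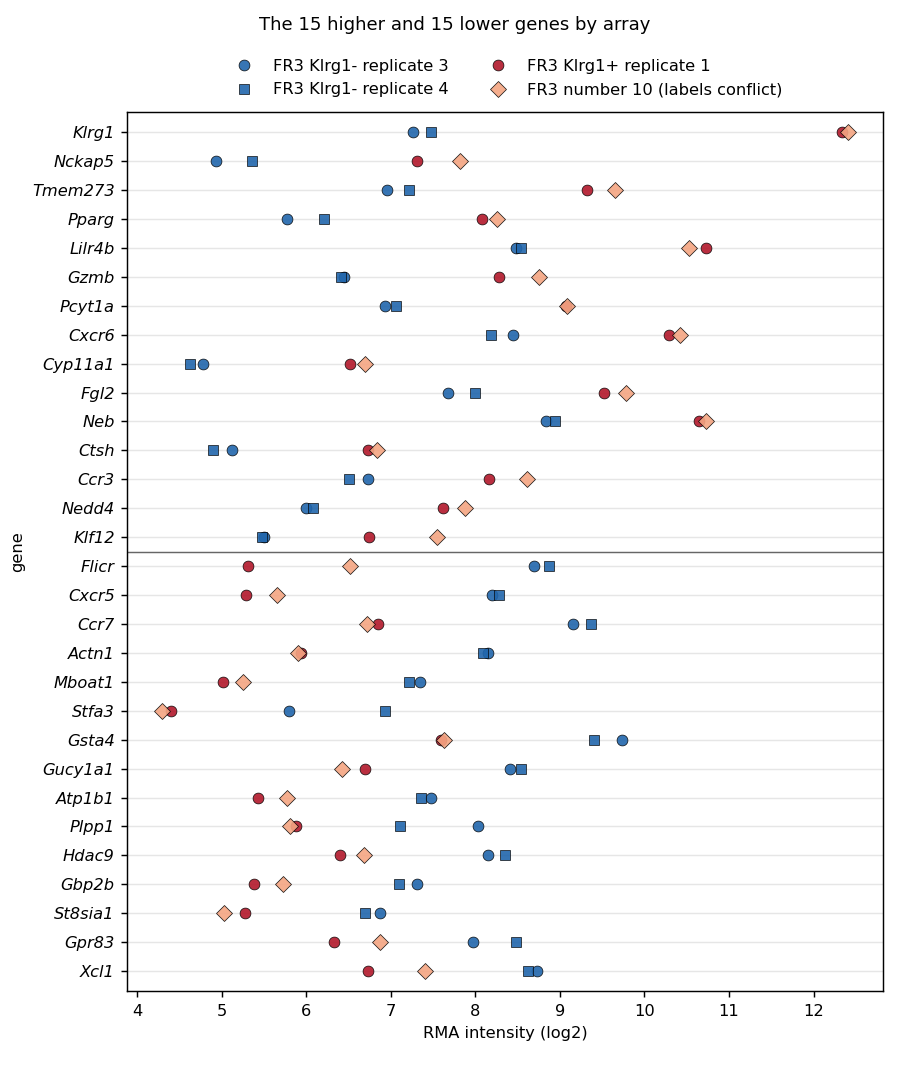
RMA intensity (log2) of the 15 higher and 15 lower genes with the largest pair difference on each of the 4 arrays of the second set, with 1 point per array. The 30 genes were chosen so that both Klrg1-high arrays lie on one side of both Klrg1-negative arrays. Array 10 and replicate 1 lie farthest apart for Flicr, at 6.52 and 5.31.

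Genes of resting Tregs were among the lower genes. Of 20 measured naive and lymphoid homing genes 8 fell and 2 rose in replicate 1, against 2.82% and 2.14% of all genes, and the median pair difference was -0.50. Actn1, which encodes the actin-bundling protein alpha-actinin-1, stood at 8.15 and 8.08 in the Klrg1-negative arrays, at 5.94 in replicate 1 and at 5.90 in array 10. It fell by 2.18 in replicate 1 (SE 0.15, adjusted p = 1.77e-06, limma). Atp1b1, the beta subunit of the sodium pump, stood at 7.48 and 7.35 against 5.43 and 5.77. Id3, which restrains E proteins and maintains resting Tregs, stood at 8.16 and 7.68 against 6.47 and 6.36 and fell by 1.45 in replicate 1 (SE 0.20, adjusted p = 0.00103, limma). Atp1b1 and Id3 were counted as apart by at least 1, which fixes their lack of overlap. Foxp1, Slamf6 and the survival gene Bcl2 also fell, with pair differences of -0.87, -0.9965 and -0.72. The 2 that rose were Il7r, the IL-7 receptor alpha chain, at 10.49 and 10.09 against 11.12 and 11.31, and Satb1, a chromatin organiser, at 9.21 and 9.10 against 9.81 and 9.61. S1pr1, which lets T cells leave lymphoid organs, stood at 9.66 and 9.71 against 9.20 and 9.23 and did not pass in replicate 1 (adjusted p = 0.081, limma), and Klf2, which drives S1pr1, overlapped between the sides.

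The largest lower difference was that of Flicr, a long non-coding RNA of the Foxp3 locus. It stood at 8.70 and 8.87 in the Klrg1-negative arrays, at 5.31 in replicate 1 and at 6.52 in array 10, and it fell by 3.47 in replicate 1 (SE 0.18, adjusted p = 8.56e-08, limma). Foxp3 itself did not separate the sides. Gpr83, a receptor enriched in Tregs, stood at 7.97 and 8.48 against 6.33 and 6.87. Over 20 genes of core Treg identity 3 rose and 2 fell in replicate 1, against 2.14% and 2.82% of all genes. The median pair difference of this list was -0.05. Ctla4 and Ikzf2 had differences of 0.03 and 0.37, neither past the threshold in replicate 1. Gucy1a1 encodes the alpha subunit of the nitric oxide receptor guanylate cyclase, and stood at 8.41 and 8.54 against 6.70 and 6.42. It fell by 1.78 in replicate 1 (SE 0.15, adjusted p = 1.67e-05, limma). Gucy1b1, the beta subunit of the same enzyme, looked at after its value was seen, stood at 6.54 and 6.42 against 4.86 and 5.45. Hdac9, a histone deacetylase, stood at 8.15 and 8.35 against 6.40 and 6.69, and Xcl1, a chemokine for cross-presenting dendritic cells, at 8.72 and 8.63 against 6.73 and 7.41. Mboat1 and Plpp1, both enzymes of membrane lipids, had pair differences of -2.15 and -1.73, and Gsta4, a glutathione transferase, -1.96. Stfa3, a stefin A family protein, stood at 5.79 and 6.93 in the Klrg1-negative arrays, which differ by 1.14, and at 4.40 and 4.29 in the Klrg1-high arrays, below the 25th percentile of all probe sets, so the size of its difference is uncertain. The other members of the 15 were Gbp2b at -1.65 and St8sia1, a ganglioside synthase, at -1.63. Stfa3 and Gbp2b have near-identical copies that the probes may share.

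The stretch of 250 bases before the annotated start is shown for Gzmb and Cxcr6, as genes with high levels in the Klrg1-high arrays, and for Actn1, as one with low levels. The sequences are RefSeq's of build GRCm38.p6, 5′ to 3′ on the gene's strand, and capitals mark a match to the E-box form CAGNTG on either strand. Gzmb lies at chr14:56262335-56262584 on the minus strand, Cxcr6 at chr9:123806227-123806476 on the plus strand and Actn1 at chr12:80260364-80260613 on the minus strand.
Gzmb: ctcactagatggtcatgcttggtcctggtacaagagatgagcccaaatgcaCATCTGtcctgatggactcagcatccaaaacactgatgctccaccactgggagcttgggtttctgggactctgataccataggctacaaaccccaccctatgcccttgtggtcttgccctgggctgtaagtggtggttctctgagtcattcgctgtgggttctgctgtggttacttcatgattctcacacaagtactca
Cxcr6: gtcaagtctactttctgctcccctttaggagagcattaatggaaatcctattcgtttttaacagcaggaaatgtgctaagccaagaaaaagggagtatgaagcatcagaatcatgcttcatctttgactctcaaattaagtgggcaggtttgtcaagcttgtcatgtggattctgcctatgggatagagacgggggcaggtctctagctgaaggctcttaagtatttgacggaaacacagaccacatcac
Actn1: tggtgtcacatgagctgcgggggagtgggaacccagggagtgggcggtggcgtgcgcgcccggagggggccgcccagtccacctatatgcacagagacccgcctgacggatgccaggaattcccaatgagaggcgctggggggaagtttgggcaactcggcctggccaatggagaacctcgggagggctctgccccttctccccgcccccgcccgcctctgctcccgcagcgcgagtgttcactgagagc
The Gzmb window held 1 such match, and the Cxcr6 and Actn1 windows none. Over both strands, CAGNTG was found in 54.5% of 55 windows of the higher genes, 46.4% of 84 windows of the lower genes and 41.8% of all 19177 windows. These windows came from 40 of the 58 higher genes, 59 of the 87 lower genes and 15614 genes in all. A gene with several annotated starts counts more than once, so the windows are not independent units. The letters AGGTCA of a nuclear receptor half-site were found in 16.4%, 17.9% and 12.4%, the letters AGATAA of a GATA motif in 5.45%, 7.14% and 8.45%, and the letters GTGAAA of the Blimp-1 core in 3.64%, 14.3% and 10.2%. Each motif was counted on its own, whether or not its matches overlapped those of another, and a match describes these letters in this window only. Windows were at hand for 23 of the 30 genes with the largest differences.

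Grouped by function, the lists with the highest medians were those of tissue Tregs and effector Tregs. Of the 20 measured tissue Treg genes other than Klrg1, 9 rose and 0 fell in replicate 1, against 2.14% and 2.82% of all genes. At an unadjusted p under 0.05, 11 of the 20 were higher and 0 lower in limma, against 9.38% and 10.6% of all genes, and the median pair difference was 0.57. Besides Pparg, Cxcr6, Ccr3, Il10, Gata3 and Ccr8 they included Hpgds, a prostaglandin synthase, at 7.47 and 7.02 against 8.11 and 8.25. Of 34 effector Treg genes 10 rose and 1 fell, with a median of 0.47. Penk, which encodes the opioid precursor proenkephalin, stood at 11.51 and 11.47 against 12.44 and 12.46, and Tnfrsf18, which encodes GITR, at 10.50 and 10.26 against 11.19 and 11.25. The member that fell was Anxa2, at 7.60 and 7.74 against 6.29 in replicate 1 and 7.34 in array 10. These lists overlap in their members and were chosen with earlier results of these arrays known.

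Costimulatory receptors, the list of S100 proteins, annexins and galectins, integrins and chemokines had median pair differences of 0.23, 0.21, 0.20 and 0.18. In replicate 1, 2.14% of all genes rose and 2.82% fell. The lists of other programmes described below had medians between -0.25 and 0.16, against 0.01 over all genes. The count of members at an unadjusted p under 0.05 is given with each for limma, where 9.38% of all genes were higher and 10.6% lower. Of 33 cell cycle genes none passed in replicate 1 with limma (2 higher and 4 lower at an unadjusted p under 0.05), and the median was -0.06. Mki67, the proliferation marker Ki-67, stood at 7.57 and 7.93 against 8.30 and 8.03. Of 24 type I interferon response genes none passed either (2 higher and 4 lower at an unadjusted p under 0.05 in limma), with a median of -0.06. Oxidative phosphorylation genes and cytosolic ribosomal proteins were shifted to the lower side. Of 35 oxidative phosphorylation genes 2 fell and none rose (0 higher and 11 lower at an unadjusted p under 0.05 in limma), 18 had both Klrg1-high arrays below both Klrg1-negative arrays and 2 had them above, and the median was -0.25. Of 24 cytosolic ribosomal proteins 1 fell and none rose (0 higher and 5 lower at an unadjusted p under 0.05 in limma), 16 had the Klrg1-high arrays below and 0 above, and the median was -0.15. Over all genes 19.9% had them below and 21.3% above. In replicate 1 alone the median was -0.20 for both lists, and in array 10 alone it was -0.13 for both. Of 32 immediate genes of T cell receptor signalling 3 rose and none fell (9 higher and 3 lower at an unadjusted p under 0.05 in limma), with a median of 0.16. Of 20 targets of IL-2 and STAT5 signalling 2 rose and 2 fell (4 higher and 6 lower at an unadjusted p under 0.05 in limma), with a median of -0.08.

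**Figure D4:**
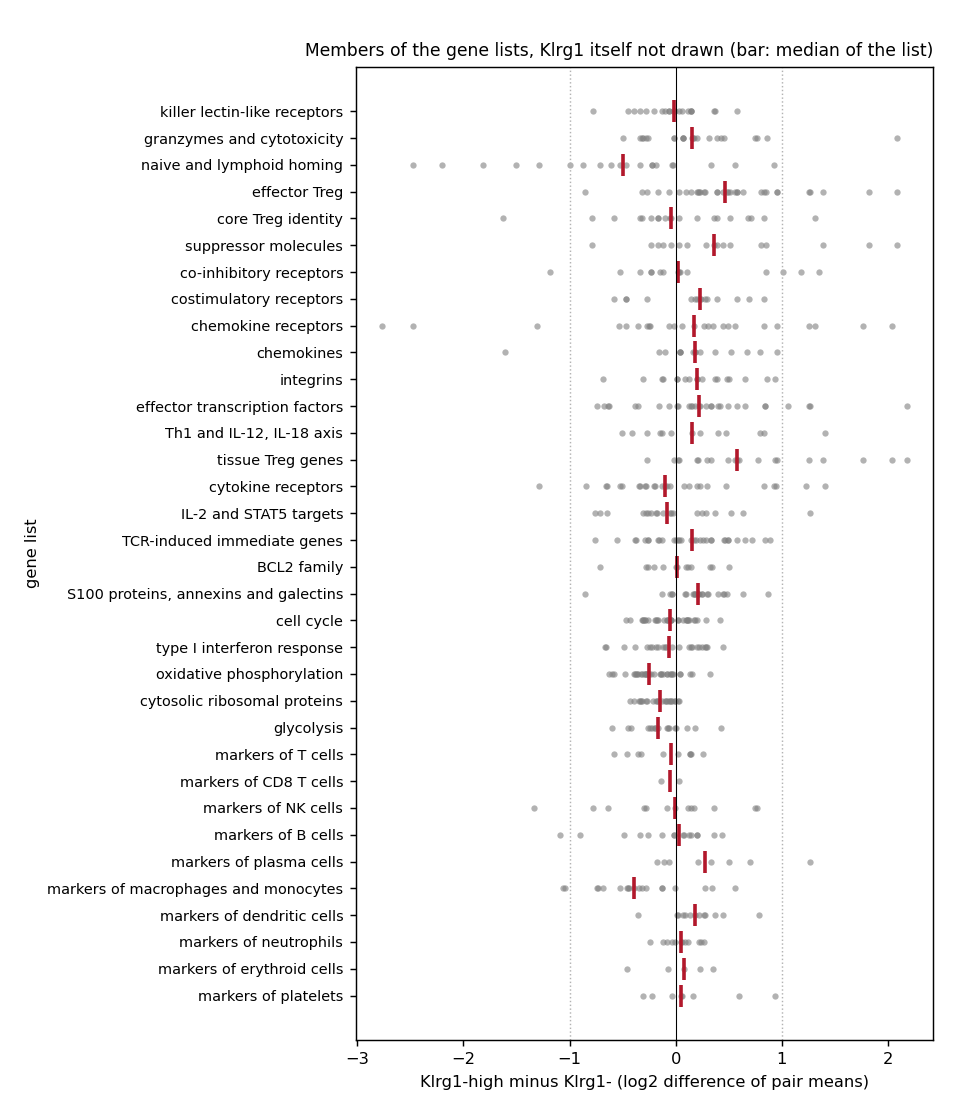
Pair difference (mean of the 2 Klrg1-high arrays minus mean of FR3 Klrg1- replicates 3 and 4, log2) of each member of the gene lists, with 1 grey point per gene and a red bar at the median of the list, Klrg1 counted in the medians of its lists. The medians of tissue Treg and effector Treg genes lie farthest to the right, at 0.58 and 0.47. That of naive and lymphoid homing genes lies farthest to the left, at -0.50. In replicate 1 alone, not drawn, these medians are 0.49, 0.40 and -0.41.

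The mean level of each of the 9 marker lists of other cell types lay between 4.81 and 6.76 on the 4 arrays, where that of all genes was 6.62 to 6.63, and markers of macrophages and monocytes were lower in the Klrg1-high arrays. Of 19 such markers 12 had both Klrg1-high arrays below both Klrg1-negative arrays and 1 had them above, against 19.9% and 21.3% of all genes, and the median pair difference was -0.39. Their mean level was 6.37 and 6.43 in FR3 Klrg1- replicates 3 and 4, 6.04 in replicate 1 and 6.07 in array 10. Mpeg1, Vcam1, Cybb and C1qc were the 4 that fell in replicate 1, and Fcgr1 rose, where 2.82% of all genes fell and 2.14% rose. C1qa, a complement gene of macrophages, stood at 6.17 and 5.85 against 5.50 and 5.60, and Csf1r, their growth factor receptor, at 5.86 and 5.69 against 5.34 and 5.43, where the 25th percentile of all probe sets on these arrays lay between 5.06 and 5.10. Tyrobp, a signalling adaptor of myeloid and NK cells, was lower at 7.61 and 8.19 against 6.75 and 6.37. Of 13 NK cell markers 5 had the Klrg1-high arrays below and 3 above, with a median of -0.008. The B cell genes Bank1 and H2-Ab1 were lower too, while the median of 16 B cell markers was 0.03. Of 13 dendritic cell markers 1 had them below and 6 above, with a median of 0.18. Of 8 plasma cell markers 0 had them below and 5 above, with a median of 0.28. The part of these markers in the lower genes, Stfa3 and Plpp1 among them, was not tested. RMA values have no zero, so no marker can be called absent, and fewer cells of a type and less RNA per cell cannot be told apart.

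The first set of arrays holds FR1, FR2 and FR3 Klrg1- and shares no array with the Klrg1 comparison. Its differences come from its own 6 arrays, but the calls use the spread over all 9 grouped arrays, FR3 Klrg1- replicates 3 and 4 included, so they are not independent of the arrays that chose the 58 and 87 genes. A fit on the first set alone is therefore given beside them. Of the 58 genes higher in the Klrg1-high pair, 21 (36.2%) were also higher in FR3 Klrg1- than in FR1, Klrg1 itself among them, and 5 (8.62%) were lower (limma, adjusted p under 0.05). Of all genes 4.39% were higher and 3.79% lower in that contrast, and the 21 are 2.4% of its 876 higher genes. In FR2 against FR1, which uses the same FR1 arrays, 20 of the 58 (34.5%) were higher, against 1.96% of all genes. The fit on the first set alone called 22 of the 58 higher in FR3 Klrg1- against FR1, where 5.44% of all genes were. It called 21 in FR2 against FR1, where 2.93% were (limma). With genes under the percentile 40 left out, the counts were 19 and 21 of the 58, against 8.32% and 4.66% of the genes kept. Without the array set in the fit they were 12 and 5, against 1.11% and 0.206% of all genes. The calls of FR2 against FR1 depended on single arrays, with 391 genes higher in all and 166 without FR2 replicate 1, and leaving out each array in turn gave 17 to 21 of the 58. In FR3 Klrg1- against FR2, 5 of the 58 (8.62%) were higher and 8 (13.8%) lower, where 2.81% and 1.94% of all genes were. For Lilr4b the means of FR1, FR2 and FR3 Klrg1- in the first set were 4.82 ± 0.22, 7.22 ± 0.20 and 8.02 ± 0.71 (SD, n = 2 each). Il10 stood at 5.78 ± 0.46, 7.89 ± 0.22 and 9.53 ± 0.39 in the same groups, and Cxcr6 at 5.44 ± 0.44, 7.08 ± 0.45 and 7.06 ± 0.24. These 3 genes were thus higher in FR3 Klrg1- than in FR1 (adjusted p = 4.07e-07, 2.83e-08 and 0.000152, limma). Within the second set they were higher in the Klrg1-high arrays than in FR3 Klrg1- replicates 3 and 4. Their levels are not to be set against each other across the sets. Gata3 did not pass in FR3 Klrg1- against FR1, at 0.31 ± 0.13 (SE, adjusted p = 0.233, limma), and neither did Nckap5, Tmem273, Pcyt1a, Cyp11a1, Ctsh or Nedd4.

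The 87 lower genes split between opposite directions in the first set. In FR3 Klrg1- against FR1, 21 of them (24.1%) were lower and another 21 (24.1%) were higher (limma). The same 2 backgrounds of 3.79% and 4.39% apply. With genes under the percentile 40 left out, 23 were lower and 16 higher, against 8.11% and 8.32% of the genes kept. Without the array set in the fit, 7 were lower and 9 higher, against 1.09% and 1.11% of all genes. The fit on the first set alone gave 25 lower and 21 higher, against 4.91% and 5.44% of all genes, and the lower count was 12 without FR1 replicate 2 and 13 without FR3 Klrg1- replicate 2. Ccr7 was lower in both CD62Llo groups than in FR1, with means of 11.73 ± 0.08, 10.12 ± 0.03 and 10.47 ± 0.04 for FR1, FR2 and FR3 Klrg1- (SD, n = 2 each), and lower still in the Klrg1-high arrays than in the Klrg1-negative arrays of their set. Actn1 stood at 10.47 ± 0.01, 9.72 ± 0.01 and 9.01 ± 0.02 in FR1, FR2 and FR3 Klrg1- (SD, n = 2 each), and Gpr83, Atp1b1 and St8sia1 were likewise lower in FR3 Klrg1- than in FR1. Cxcr5 went the other way, with 6.81 ± 0.30, 7.42 ± 0.08 and 8.96 ± 0.09 in that order (SD, n = 2 each). It was 2.16 ± 0.15 higher in FR3 Klrg1- than in FR1 (SE, adjusted p = 2.16e-07, limma), and lower by 2.77 in the Klrg1-high pair. Gucy1a1 was level in FR1 and FR2, at 6.46 ± 0.05 and 6.52 ± 0.03, and stood at 8.21 ± 0.05 in FR3 Klrg1- (SD, n = 2 each). Its Klrg1-high values of 6.70 and 6.42, in the other array set, are not to be set against these levels, since the sets differ in level. Ccr6, Hdac9, Bcl6 and Cd160 were also higher in FR3 Klrg1- than in FR1 and lower in Klrg1+ replicate 1. Against FR2, which was sorted as CD69-, FR3 Klrg1- was higher for 21 of the 87 (24.1%) and lower for 5 (5.75%), and without FR2 replicate 1 it was higher for 12. In FR2 against FR1, 22 of the 87 (25.3%) were lower, where 2.3% of all genes were, and 4 (4.6%) were higher. The 22 became 11 without FR1 replicate 1, 9 without FR1 replicate 2, 11 without FR2 replicate 1 and 13 without FR2 replicate 2, and 26 in the first set alone.

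**Figure D5:**
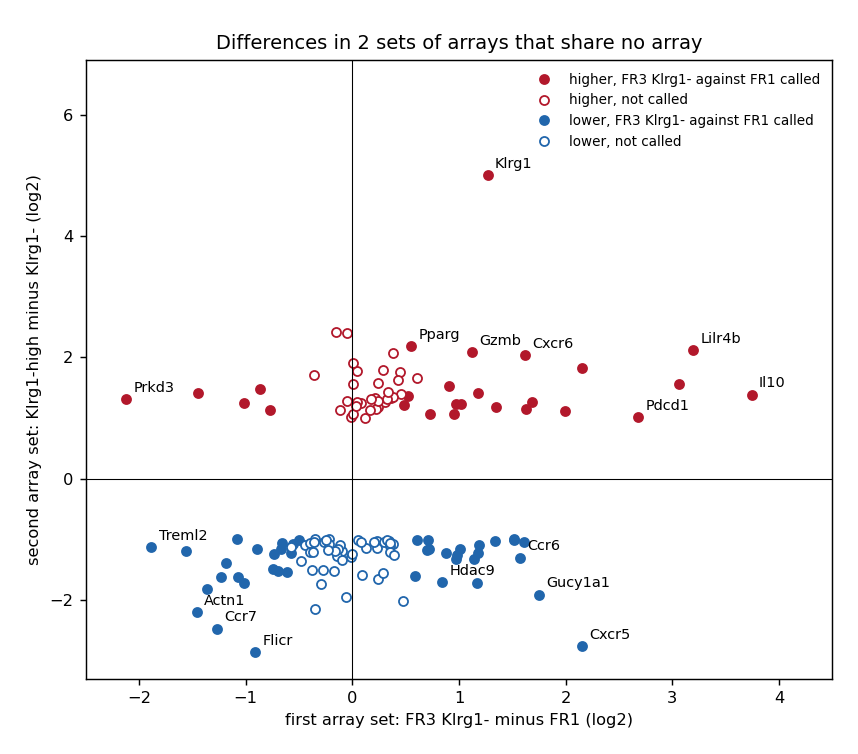
Pair difference (log2) of the 145 genes of the second array set against the difference of FR3 Klrg1- and FR1 in the first set (log2), with 1 point per gene, filled where the latter passed in limma. Of the filled higher genes 21 lie to the right of zero and 5 to the left, whereas of the filled lower genes 21 lie on each side, with Cxcr5 and Gucy1a1 on the right and Ccr7 and Actn1 on the left.

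The 2 Klrg1-high arrays differed from each other more than the 2 Klrg1-negative arrays did. Between array 10 and replicate 1, 137 genes differed by at least 1, against 55 between FR3 Klrg1- replicates 3 and 4, and the SD of the difference over genes was 0.311 against 0.279. Ifitm3, an antiviral membrane protein, stood at 6.91 in replicate 1 and 4.62 in array 10, and Mt2, a metallothionein, at 5.72 and 7.30. These 2 were chosen after their values were seen. Array 10 was set against its own marker text, CD62Lhi CD69-, through the genes that separate FR3 Klrg1- from FR1 in the first set. The 756 genes lower in FR3 Klrg1- than in FR1 had a median difference of -0.08 between array 10 and FR3 Klrg1- replicates 3 and 4, and of -0.10 between replicate 1 and them. The 876 higher genes had medians of 0.04 and 0.00. In the first set, where they were chosen, the median difference between FR3 Klrg1- and FR1, the group gated as CD62Lhi CD69-, was -0.68 for the lower and 0.76 for the higher genes. Within the second set array 10 had the lowest Ccr7 level, 6.72. These values were not used to place array 10 in a group.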

How the data were processed

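The authors deposited log2 intensities made with RMA (background correction, normalization between arrays, probe summary), per the submitters' processing notes, which give no version. Of 35556 probe sets 21789 had 1 gene symbol in the platform's probe table, 1621 several and 12146 were not in it. The probe set with the highest mean was taken per gene, which left 19938 genes with no intensity filter. Groups came from the labels, and the array with contradictory labels entered no test. Array sets were found by average-linkage clustering of array correlations. Labelled groups were compared in R 4.3.3 with limma 3.58.1, in 1 fit over 9 arrays with the array set as a covariate and Benjamini-Hochberg adjustment at 0.05. On simulated data the Klrg1+ comparison recovered 99% of 100 genes moved by 1 and 100% of 100 moved by 2, with 12 calls on unmoved genes among 19938. The simulated noise was drawn from the fitted model itself, so the lone Klrg1+ array varied just as the fit assumes. The simulation therefore checks the calculation and cannot test that assumption in the real arrays.

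Named were the 15 higher and 15 lower genes with the largest pair difference among those whose arrays lay apart and that passed in replicate 1 (leaving out immunoglobulin and T cell receptor segments, predicted and Riken genes, olfactory and vomeronasal genes, histones and small RNA genes), the sort markers, and members of 35 gene lists by size of the difference. The members and lists were chosen with earlier results of these data known. Alternatives were an intensity trend, no array set, the replicate number as a block, quantile normalization, a filter at the percentile 40, every probe set, a minimum change of 1, the second set alone, and leaving out each array. A fit on the first set alone was added after seeing the data.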

Additional observations from a re-analysis of the deposited data

Results flagged for a closer look

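Lilr4b in FR3 Klrg1- replicate 1 stood at 7.52, apart from the other 3 arrays of its group, which lay between 8.49 and 8.54. This array belongs to the first array set, so it enters neither side of the Klrg1-high comparison. Chance sets an array apart in this way in about 1 in 20 groups.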

How the results depend on the processing

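Without the array set in the fit, Klrg1+ replicate 1 against FR3 Klrg1- gave 22 genes, FR3 Klrg1- against FR1 439, FR3 Klrg1- against FR2 55 and FR2 against FR1 52, where the fit with the set gave 989, 1632, 948 and 850. A minimum change of 1 left 212, 429, 145 and 158. Leaving out each array in turn gave 721 to 1553 genes for Klrg1+ replicate 1 (1553 without FR3 Klrg1- replicate 4), 910 to 2063 for FR3 Klrg1- against FR1, 302 to 1318 for FR3 Klrg1- against FR2 and 253 to 1331 for FR2 against FR1. In these 3 the count moved by over 1.5 times without FR1 replicate 2 or FR3 Klrg1- replicate 1 or 2, without any 1 of the FR2 or first-set FR3 Klrg1- arrays, and without any 1 of the FR1, FR2 or second-set FR3 Klrg1- arrays, respectively. Without genes under the percentile 40, FR2 against FR1 gave 1401. Under quantile normalization it gave 421 higher and 318 lower, against 391 and 459. The replicate number as a block gave 848, 1550, 812 and 750 genes and changed no call of the 30 genes with the largest differences. Deviations of same-numbered arrays correlated at 0.181, 0.144 and 0.023, so the numbers were not taken as pairing the samples. The first array set alone, added after seeing the data, gave 2063, 1318 and 1331 genes for the 3 comparisons within it. The pair counted 145 genes, replicate 1 alone 218, and a minimum of 2 left 14. Leaving out FR3 Klrg1- replicate 3 or 4 gave 172 or 208. Of those 30 genes, 18 no longer passed without the array set (9 with a larger and 9 with a smaller difference), 25 were tested and passed under the percentile 40 filter, and 30 kept direction and call under each other alternative. Of values that did not pass, Cd69 was 0.13 without FR3 Klrg1- replicate 3 and -0.38 without replicate 4, Foxp3 was -0.30 and 0.013, and Cd4 was -0.68 without the array set. The cause was not tested.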

Other observations

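Several enzymes of cyclic nucleotide signalling stood among the 145 genes, in both directions, and were looked at after their values were seen. Pde3b and Pde7b, phosphodiesterases that break down cyclic AMP, had pair differences of 1.41 and 1.32. Pde3b stood at 4.98 and 5.53 in FR3 Klrg1- replicates 3 and 4, at 6.49 in Klrg1+ replicate 1 and at 6.83 in array 10, and Pde7b at 5.51 and 5.44 against 6.53 and 7.06. Lack of overlap was fixed for both, as members of the 145. In the first array set Pde3b was lower in FR3 Klrg1- than in FR1, at -1.45 ± 0.19 (SE, limma), the opposite direction. The genes of both subunits of soluble guanylate cyclase, described above, were lower in the Klrg1-high pair.

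Prkd3, a protein kinase of the D family, and Sytl2, a synaptotagmin-like protein of vesicle docking, were likewise higher in the Klrg1-high pair, by 1.31 and 1.48, and lower in FR3 Klrg1- than in FR1, with differences of -2.12 ± 0.15 and -0.87 ± 0.13 (SE, limma). Nod1, a sensor of bacterial peptidoglycan, stood at 8.31 and 8.12 against 7.23 and 6.88, and Tlr7, a sensor of single-stranded RNA, at 6.00 and 5.51 against 4.99 and 4.14, the last pair of values below the 25th percentile of all probe sets. Epas1, which encodes the hypoxia factor HIF-2 alpha, was higher by 1.56, at 6.28 and 6.27 against 8.27 and 7.41, while Hif1a fell in replicate 1, with 10.54 and 10.35 against 9.62 and 10.01. These genes were chosen after their values were seen.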
